A study of Homo sapiens with 10 samples.

Results

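U87MG is an established human glioma cell line. In this series it was plated sparsely, and colonies that had each grown from 1 cell were expanded as subclones numbered 1, 2, 3, 5, 6, 8, 9, 10, 11 and 12. All 10 were untreated, carried no added gene and grew attached to plastic in medium with serum, and each was profiled on 1 array. Each subclone is therefore a single clone with a single measurement, so the spread between repeat cultures is unknown and none of the differences below carries a test. The account concerns subclone 3 and what separates it from subclones 2 and 5. Genes were selected on their array values, where subclone 3 lay outside the values of both 2 and 5 by at least 1 log2 unit, which is 2-fold on a linear scale. This found 49 of 7095 tested genes among 11880 in the table: 18 were higher in subclone 3 (0.254% of tested genes) and 31 were lower (0.437%). Left out before this count were genes that stayed below 5.00, the median of the whole table, on each of the 10 arrays; those kept are called tested genes, although no statistical test was run. Since the genes were chosen by these values, their differences describe the choice and are not evidence for it.

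A cancer cell line is a mixture of cells that have drifted apart in chromosome content and in heritable expression states, and growing colonies from single cells separates such states into lines that can be compared. U87MG cells have a mesenchymal character: they make matrix, secrete growth factors and cytokines, and signal through receptor kinases and the RAS-ERK pathway, which induces its own inhibitors, the Sprouty proteins. Metallothioneins, small proteins that bind zinc and copper, are a family whose RNA levels follow metal supply and stress.

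Subclones 2, 3 and 5 were the most alike of all arrays. The SD of the difference over tested genes was 0.31 between subclones 2 and 5, 0.34 between 2 and 3 and 0.36 between 3 and 5 (log2), the 3 smallest of 45 pairs, and the next pair was 2 and 8 at 0.39. At least 1 log2 unit apart were 85 genes between 2 and 5, 123 between 2 and 3 and 116 between 3 and 5. The same rule applied to subclone 2 against 3 and 5 found 23 genes (0.324%), and applied to subclone 5 against 2 and 3 it found 31 (0.437%, with 15 higher, 0.211%, and 16 lower, 0.226%), compared with 49 (0.691%) for subclone 3. Array medians were 5.11 in subclone 3, 5.10 in 2 and 5.10 in 5. In the other 7 the medians ran from 4.87 (subclone 10) to 5.11 (subclone 9). The upper quartile was 6.75 in subclone 10 and 7.32 in subclone 3, so ranks among all 10 arrays depend in part on scaling. Of 10 glioma and mesenchymal genes 5 reached the table median in each of subclones 2, 3 and 5. In subclone 3 CD44, CHI3L1 and FN1 stood at 9.52, 12.28 and 12.39, NES at 7.21 and EGFR, just above the median, at 5.07. The glial genes GFAP, S100B, OLIG2 and SOX2 lay below the table median in subclones 2, 3 and 5, as did THY1, at 3.63 in subclone 3. Of the markers of other cell types, 0 of 4 blood genes and 0 of 4 endothelial genes reached the table median in these 3 subclones, whereas 1 of 5 epithelial genes (KRT8) and 2 of 3 neuronal genes (SNAP25 and GAP43) did so in each of them.

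**Figure D1:**
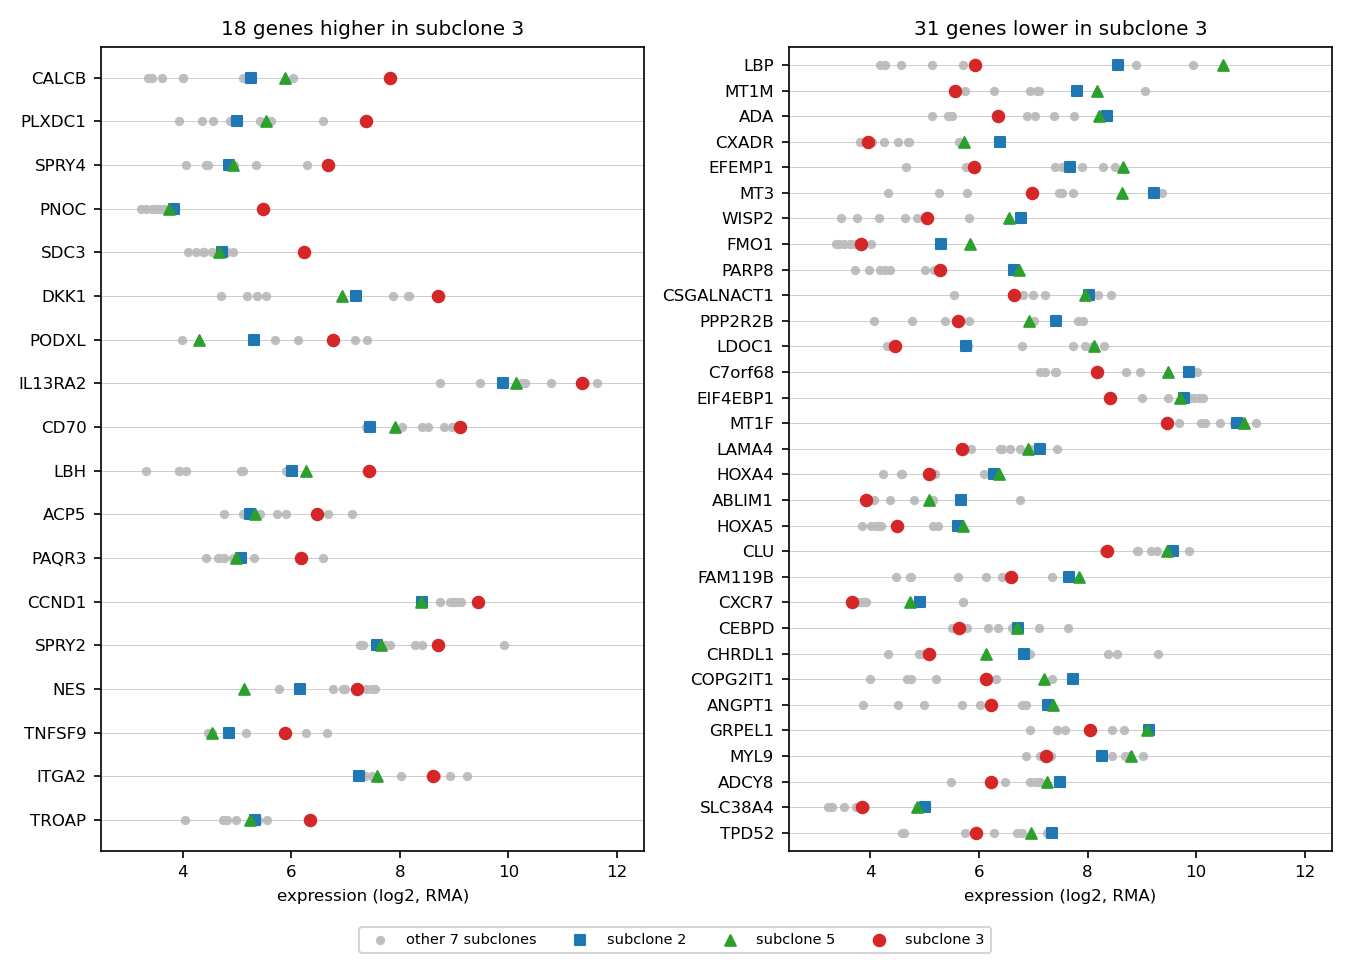
Expression (log2, RMA, horizontal axis) of the 18 genes higher and the 31 genes lower in subclone 3, ordered by their distance from the nearer of subclones 2 and 5. Red circles are subclone 3, blue squares subclone 2, green triangles subclone 5 and grey points the other 7 subclones; each point is 1 array. CALCB, PNOC, SDC3 and LBH in subclone 3 stand clear of all other arrays, while many of the lower genes lie among the grey points. PNOC and SDC3 passed the filter on low values through subclone 3 alone, which had to be their highest array.

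CALCB, which encodes the beta form of calcitonin gene-related peptide, was at 7.82 in subclone 3, 5.27 in 2 and 5.90 in 5, while the other 7 ranged from 3.37 to 6.03 (median 4.01). Subclone 3 was thus 1.79 log2 units above the next highest array and 4.73-fold above the mean of its relatives. The sister gene CALCA was listed at 3.80, 3.77 and 3.64 in subclones 3, 2 and 5, below the table median in all of them. Of the receptor parts for the peptide, RAMP1, an accessory protein that gives the receptor its ligand choice, was at 6.44 in subclone 3, 5.11 in 2 and 5.97 in 5, and the receptor gene CALCRL was at 3.35, 3.23 and 3.19. A second neuropeptide precursor, PNOC, which gives rise to nociceptin, was at 5.48 in subclone 3 against 3.85 in 2, 3.75 in 5 and at most 3.67 in the other 7. PNOC reached the table median on the array of subclone 3 alone and passed the filter on low values through it. Subclone 3 therefore had to be its highest array.

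DKK1, a secreted inhibitor of Wnt signalling, was at 8.70 in subclone 3, 7.20 in 2 and 6.93 in 5. The other 7 lay on both sides of the relatives, from 4.71 to 8.18 (median 5.53), with subclone 3 above them all. CD70 and TNFSF9, membrane-bound ligands of the tumour necrosis factor family that costimulate T cells, were at 9.10 and 5.88 in subclone 3, against 7.45 and 4.85 in subclone 2 and 7.92 and 4.53 in subclone 5. For CD70 the lead of subclone 3 over the next array was only 0.04, and for TNFSF9 subclones 9, 11 and 12 stood higher, at 6.28, 5.90 and 6.65. The higher value of subclone 3 in these ligands was shared with other subclones, unlike that in CALCB.

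PLXDC1, a transmembrane protein first described in tumour endothelium, was at 7.38 in subclone 3, 5.00 in 2 and 5.54 in 5, and at most 6.58 elsewhere. SDC3, a heparan sulphate proteoglycan of the cell surface, was at 6.24, 4.73 and 4.68 in subclones 3, 2 and 5. It ranged from 4.11 to 4.93 in the other 7. SDC3 passed the filter on low values through subclone 3 alone, which therefore had to be its highest array. The sialomucin PODXL was at 6.77, 5.31 and 4.31 and was higher still in subclones 6, 9 and 12 (7.40, 7.18 and 6.79). IL13RA2, a decoy receptor for interleukin-13 that is studied as a target in glioma, was at 11.35 in subclone 3, 9.90 in 2 and 10.14 in 5, within the range of the other 7 (8.73 to 11.63). The related receptor gene IL13RA1 ran the other way, at 7.62, 7.96 and 8.40 in subclones 3, 2 and 5. ITGA2, the collagen-binding integrin chain, was at 8.61, 7.24 and 7.58. The other 7 lay between 7.36 and 9.24, and their median of 8.67 was above subclone 3.

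SPRY4, an inhibitor of receptor kinase signalling to ERK that the pathway itself induces, was at 6.69 in subclone 3, 4.86 in 2 and 4.93 in 5, a 3.46-fold difference, and between 4.07 and 6.30 in the other 7. SPRY2 was at 8.70, 7.58 and 7.66, and subclone 9 alone was higher (9.92). The values of 2 and 5 were close to each other in both genes, and subclone 3 lay above them. The family was not uniform: SPRY1 was at 4.04 in subclone 3, 6.21 in 2 and 4.29 in 5. PAQR3, a Golgi protein that holds RAF away from the plasma membrane, was at 6.19, 5.08 and 4.99, with 4.43 to 6.59 in the other 7. CCND1, the G1 cyclin, was at 9.45, 8.40 and 8.40 with 8.75 to 9.43 in the other 7. In CCND1 subclones 2 and 5 were the lowest arrays of the 10 and subclone 3 the highest.

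Other ERK feedback and output genes of the immediate early list differed by less. The phosphatase DUSP6 was at 8.66 in subclone 3, 8.18 in 2 and 7.98 in 5, and the transcription factor ETV5 at 6.32, 5.86 and 5.85. DUSP4 was at 6.85, 6.34 and 6.55. For DUSP5 and PHLDA1 subclone 3 lay between its relatives, at 6.34 and 8.77. Over the 21 tested genes of the list 2 were among the 18 higher genes and 0 among the lower ones, beside 0.254% and 0.437% of all tested genes. The median difference between subclone 3 and the mean of 2 and 5 was 0.11, beside 0.01 over all tested genes.

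**Figure D2:**
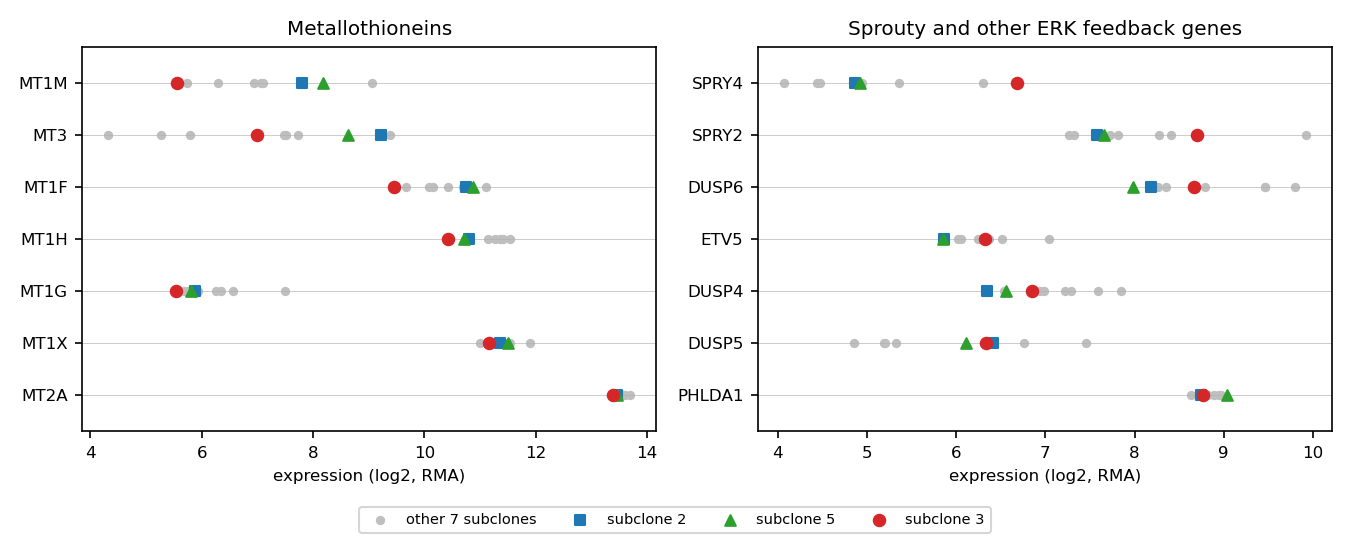
Expression (log2, RMA, horizontal axis) of the 7 tested metallothioneins (left) and of SPRY2, SPRY4 and other ERK feedback genes (right), symbols as in the plot of all 49 genes, each point 1 array. The third Sprouty gene, SPRY1, ran the other way (4.04 in subclone 3, 6.21 in 2 and 4.29 in 5) and is not drawn. Subclone 3 lies below subclones 2 and 5 in 7 of 7 metallothioneins (6 under quantile normalization, not drawn), by most in MT1M, MT3 and MT1F, and above both relatives in SPRY4, SPRY2, DUSP6, ETV5 and DUSP4.

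The remaining higher genes were LBH, ACP5, NES and TROAP. LBH, a transcriptional regulator of limb and heart development, was at 7.43 in subclone 3, 6.02 in 2 and 6.27 in 5, and at most 5.91 elsewhere. ACP5, tartrate-resistant acid phosphatase, was at 6.48, 5.24 and 5.33, with 4.77 to 7.11 in the other 7. NES, which encodes the intermediate filament nestin of neural progenitors, was at 7.21 in subclone 3, 6.17 in 2 and 5.14 in 5. Of the other 7 subclones 6 lay nearer to subclone 3 than to its relatives, and subclone 11, at 5.77, lay between the relatives. TROAP, a spindle-associated protein, was at 6.35 in subclone 3 and at most 5.55 on any other array.

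Among the lower genes, LBP had the widest distance. It encodes the secreted lipopolysaccharide-binding protein, and was at 5.92 in subclone 3, 8.55 in 2 and 10.49 in 5. The mean of the relatives was 12.1-fold above subclone 3. Subclones 1 and 12 were also high (9.94 and 8.89), and the other 5 lay between 4.17 and 5.71, so LBP divided the line into a high and a low set with subclone 3 in the low one. LDOC1, an X-linked gene derived from a retrotransposon, was at 4.46 in subclone 3, 5.77 in 2 and 8.12 in 5. Only subclone 8 was lower (4.30), and the median of the other 7 was 7.74. Here the relatives differed from each other by more than subclone 3 differed from the nearer of them.

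LDOC1 belonged to a list of X-linked BEX, TCEAL, MAGE and related genes in which 10 of 13 tested genes lay below both relatives, beside 34.9% of all tested genes. The median difference was -0.32 (-0.72 with a filter on the mean value and -0.13 with no filter). LDOC1 alone passed the limit of 1 log2 unit, beside 0.691% of all tested genes. MAGEC2, a cancer-testis antigen, was at 3.97 in subclone 3, 4.86 in 2 and 7.65 in 5. MAGEH1 was at 6.86, 7.72 and 7.66, and BEX4, of the brain-expressed X-linked family, at 4.83, 5.53 and 6.13. Over all 257 tested X-chromosome genes the median difference was -0.06.

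Of 7 tested metallothioneins 7 lay below both relatives (6 under quantile normalization, where MT2A differed by 0) and 3 passed the limit, beside 34.9% and 0.437% of all tested genes. MT1M was at 5.56 in subclone 3, 7.80 in 2 and 8.18 in 5, and between 5.59 and 9.06 in the other 7. MT3, the brain-enriched member, was at 6.99, 9.23 and 8.63, and MT1F at 9.46, 10.75 and 10.88. The other 4 were nearer to their relatives: MT1H (10.43, 10.80 and 10.71), MT1G (5.54, 5.88 and 5.81), MT1X (11.16, 11.36 and 11.50) and MT2A (13.40, 13.47 and 13.47). Subclone 3 was the lowest array of all 10 for MT1M, MT1G and MT1H. Genes of this family are near-identical in sequence and probes can bind RNA of several of them, so the values of single MT1 genes are uncertain and the 7 are not independent.

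Matrix genes were also among the lower genes. EFEMP1, an extracellular fibulin, was at 5.92 in subclone 3, 7.68 in 2 and 8.65 in 5. LAMA4, a laminin chain of vessel and muscle basement membranes, was at 5.68, 7.13 and 6.89, and the other 7 lay between 5.85 and 7.45. WISP2 (now CCN5), a secreted matricellular protein, was at 5.05, 6.78 and 6.55, and CSGALNACT1, which starts chondroitin sulphate chains, at 6.65, 8.04 and 7.96. Over the 30 tested proteoglycan, fibrillin and other matrix genes, 2 were lower by the limit, beside 0.437% of all tested genes. Below both relatives lay 13 (43.3%, beside 34.9% of all tested genes) and above both 5 (16.7%, beside 35.6%), and the median difference was -0.11. Members of this list also ran the other way, among them the glycoprotein TNC (11.49, 10.92 and 11.03) and the phosphoprotein SPP1 (10.32, 9.91 and 9.54). None of the 16 collagen genes passed the limit, beside 0.691% of all tested genes, and their median difference was -0.03.

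The adhesion receptor CXADR, which adenoviruses and coxsackieviruses use for entry, was at 3.95 in subclone 3, 6.38 in 2 and 5.73 in 5. CXCR7 (now ACKR3), an atypical chemokine receptor that clears CXCL12, was at 3.66, 4.91 and 4.73. Both genes thus stood below the table median in subclone 3, and CXCR7 did so in subclones 2 and 5 as well. The medians of the other 7, at 4.51 for CXADR and 3.91 for CXCR7, were nearer to subclone 3 than to its relatives. ANGPT1, the ligand of the endothelial receptor TEK, was at 6.22, 7.27 and 7.36, and CHRDL1, a secreted antagonist of bone morphogenetic proteins, at 5.07, 6.82 and 6.14, with 4.33 to 9.30 in the other 7. ADCY8, an adenylyl cyclase, was at 6.22, 7.50 and 7.25.

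ADA, which deaminates adenosine, was at 6.36 in subclone 3, 8.36 in 2 and 8.21 in 5. FMO1, a flavin mono-oxygenase, was at 3.83, 5.31 and 5.83, and PARP8, a mono-ADP-ribosyltransferase, at 5.28, 6.65 and 6.75. For these last 2 genes all 7 other subclones lay nearer to subclone 3, at most at 4.01 and 5.17, so subclones 2 and 5 held the highest values of the 10; for PARP8 subclone 3 came next, above the median of 4.26 of the other 7. PPP2R2B, a regulatory subunit of protein phosphatase 2A, was at 5.61, 7.42 and 6.92, and MYL9, the regulatory light chain of smooth muscle and non-muscle myosin, at 7.23, 8.26 and 8.81.

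C7orf68 (now HILPDA), a hypoxia-induced protein of lipid droplets, was at 8.18 in subclone 3, 9.87 in 2 and 9.47 in 5. It was in no list, yet the hypoxia response list showed the same direction: 14 of its 17 tested genes lay below both relatives and 1 above both, beside 34.9% and 35.6% of all tested genes, and the median difference was -0.33. ANGPTL4, a secreted lipase inhibitor, was at 6.55, 7.59 and 7.29, and NDRG1, a chromosome 8 gene, at 10.80, 11.58 and 11.36. INSIG2, which retains sterol sensors in the endoplasmic reticulum, was at 7.99, 8.92 and 8.77. The 1 gene above both was the histone demethylase KDM3A, by 0.23 over their mean. None of the 17 passed the limit, beside 0.691% of all tested genes. Against the median of the other 7 subclones the list was higher in subclone 3, by a median of 0.48 (0.09 over all tested genes).

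HOXA4 and HOXA5, neighbouring genes of the HOXA cluster that give positional identity, were lower together. HOXA4 was at 5.08 in subclone 3, 6.27 in 2 and 6.36 in 5, and HOXA5 at 4.49, 5.61 and 5.70. Subclone 3 sat in the middle of the 10 for both (sixth from the lowest), whereas 2 and 5 held the highest values. Of 10 tested HOX genes these 2 passed the limit, beside 0.691% of all tested genes. The median difference of the 10 was 0.06. For HOXC6, at 8.10, 7.67 and 7.89, subclone 3 lay above both relatives.

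Of the 31 lower genes 7 lie on chromosome 8 (22.6%), a chromosome that holds 257 of the 7095 tested genes (3.62%). Besides CSGALNACT1, ANGPT1 and ADCY8 they were EIF4EBP1, CLU, CEBPD and TPD52. EIF4EBP1, the repressor of cap-dependent translation controlled by mTOR, was at 8.41 in subclone 3, 9.78 in 2 and 9.70 in 5, and the other 7 lay between 9.00 and 10.13, so subclone 3 was the lowest array by 0.59. CLU, the extracellular chaperone clusterin, was at 8.36, 9.58 and 9.46. CEBPD, a transcription factor of the acute phase, was at 5.63, 6.72 and 6.70, and TPD52, a trafficking protein often gained in carcinomas, at 5.94, 7.34 and 6.95.

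The lower values were not limited to these genes. Over all 257 tested chromosome 8 genes the median difference between subclone 3 and the mean of 2 and 5 was -0.33 (quartiles -0.51 and -0.13), and 235 of them (91.4%) were lower, beside 47.4% of 6751 tested genes of other chromosomes. Below both relatives were 201 (78.2%), beside 33.4% elsewhere. Without the 8 genes that passed the limit in either direction the median of the remaining 249 was -0.32. No other chromosome came near this value: the medians of the others ran from -0.11 for chromosome 21 to 0.11 for chromosome 13. Chromosome 20 held 4 of the 31 lower genes (LBP, ADA, MYL9 and WISP2), beside 2.90% of tested genes. Its median was -0.09, and 50.5% of its tested genes lay below both relatives. In subclones 2 and 5, each against the mean of the other two of the trio, the median of chromosome 8 was 0.17, and their other chromosomes stayed between -0.15 and 0.11. The median was -0.36 against subclone 2 alone and -0.34 against subclone 5 alone.

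**Figure D3:**
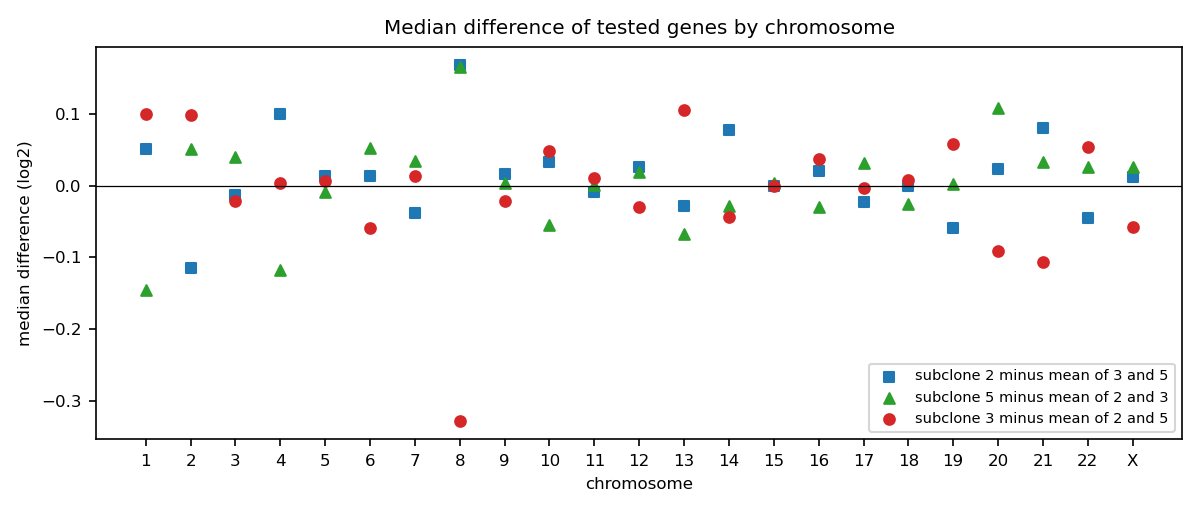
Median log2 difference (vertical axis) of the tested genes of each chromosome (horizontal axis), for subclone 3 against the mean of 2 and 5 (red circles), subclone 2 against the mean of 3 and 5 (blue squares) and subclone 5 against the mean of 2 and 3 (green triangles). The red circle of chromosome 8 at -0.33 lies far below all other points, which stay between -0.15 and 0.17. The 3 series share their arrays, so they are not independent.

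The shift ran along the whole chromosome. When the 257 genes were put in order by position and split into 10 blocks of 25 or 26 genes, the block medians lay between -0.48 and -0.21, and at least 21 genes of each block were lower in subclone 3. Among genes with a mean over the 10 arrays at or above 6.98 the median was -0.39, with 123 of 129 lower, and among the dimmer genes it was -0.28, with 112 of 128 lower. The gene lists held further chromosome 8 genes: MYC, the growth-promoting transcription factor, was at 7.51 in subclone 3, 8.25 in 2 and 7.98 in 5. The sterol synthesis enzymes FDFT1 and SQLE were at 8.57 and 6.38 in subclone 3, against 9.10 and 6.79 in subclone 2 and 9.13 and 6.75 in subclone 5. For MYC, FDFT1 and SQLE subclone 3 was the lowest of all 10. Chosen after their values were seen, the genes farthest the other way were PNOC, described above, C8orf4, a regulator of Wnt and inflammatory signalling (4.98, 4.02 and 4.34), and DUSP4.

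**Figure D4:**
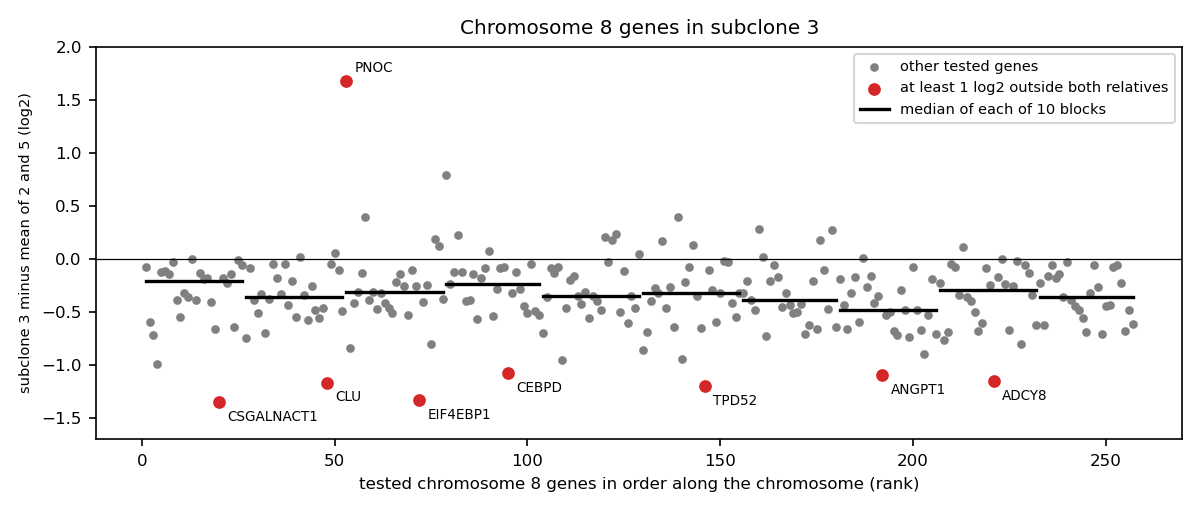
Difference between subclone 3 and the mean of subclones 2 and 5 (log2, vertical axis) for 257 tested chromosome 8 genes in order along the chromosome (rank, horizontal axis). Red points are the 8 genes at least 1 log2 unit outside both relatives, grey points the others, and black bars the medians of 10 blocks. All 10 bars lie below 0, between -0.48 and -0.21.

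The distance rule did not use the other 7 subclones, although the filter on low values took the highest of all 10 arrays. After the median difference of all tested genes was subtracted, the median of the chromosome 8 genes in subclone 3 was lower than in each of these 7, by -0.21 (subclone 6) to -0.38 (subclone 8), and 67.3% to 76.7% of the genes lay below the overall median difference. Relative to the median of each gene over the 10 arrays, and again with the array's own shift removed, the chromosome stood at -0.22 in subclone 3 and between -0.02 and 0.09 in the other 9. These comparisons share the array of subclone 3, and DNA was not assayed, so they describe RNA on 1 array.

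Lists of cell division genes differed in the opposite direction, but mostly against one relative. Of 28 tested mitosis genes 21 lay above both relatives and 0 below both, beside 35.6% and 34.9% of all tested genes. The limit was passed by 0 of them, beside 0.691% of all tested genes, and the median difference was 0.51. It was 0.16 against subclone 2 and 0.86 against subclone 5, so subclone 5 was low and subclone 3 only slightly above 2. CENPE, a kinetochore motor, was at 7.30 in subclone 3, 6.81 in 2 and 5.53 in 5. The spindle protein ASPM was at 9.12, 8.64 and 7.40, and for both genes subclone 3 was the highest of all 10. DNA replication genes had a median difference of 0.09, with -0.17 against subclone 2 and 0.36 against subclone 5. MHC class II genes, which present antigen to helper T cells, showed the same split: the median was 0.11 against subclone 2 and -1.15 against subclone 5. Of these genes 0 of 6 passed the limit, beside 0.691% of all tested genes, and CD74, the invariant chain, was at 8.47, 8.54 and 9.63.

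Of 20 tested growth factor receptors and ligands 13 lay above both relatives and 5 below both, beside 35.6% and 34.9% of all tested genes, and the median difference was 0.28 (0.053 with no filter on low values). The ephrin receptors EPHA4 (5.73 in subclone 3, 4.87 in 2 and 4.46 in 5) and EPHA2 (8.39, 7.77 and 7.66) and the AXL ligand GAS6 (9.58, 8.26 and 9.04) were highest in subclone 3 of all 10. The TEK ligand ANGPT2 was lower like ANGPT1, at 3.87, 4.82 and 4.35, all below the table median. Both genes lie on chromosome 8, where 91.4% of tested genes were lower in subclone 3. ANGPT1 was the 1 gene of this list past the limit, beside 0.691% of all tested genes.

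PDGFRA and IL6, taken as markers of subclone 3 from earlier results of these data, did not meet the rule. PDGFRA, the receptor for platelet-derived growth factors, was at 8.38 in subclone 3, 7.96 in 2 and 6.79 in 5, and between 3.96 and 6.92 (median 5.10) in the other 7. Subclone 3 was the highest of the 10, but only 0.42 above subclone 2, and subclone 8 (6.92) stood beside subclone 5. The other genes of the PDGF list differed by less: the difference from the mean of the relatives was -0.38 for PDGFRB, and PDGFC was at 9.81, 10.21 and 9.85, and PDGFA at 4.98, 4.63 and 4.68. IL6, an inflammatory cytokine, was at 5.08 in subclone 3, 5.94 in 2 and 5.92 in 5, and between 5.34 and 11.29 in the other 7. It was the lowest of all 10, by less than 1 log2 unit from its relatives.

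None of the 10 tested cytokines, 7 chemokines or 12 NF-kB subunits and feedback inhibitors passed the limit. As only 0.691% of all tested genes did, 0 among so few is near that share. The median differences of the lists were 0.02, 0.03 and -0.05. Of the NF-kB list 7 of 12 lay below both relatives (58.3%, beside 34.9% of all tested genes). The adhesion molecule ICAM1 was at 4.67 in subclone 3, 5.47 in 2 and 5.65 in 5, the mitochondrial superoxide dismutase SOD2 at 5.48, 6.17 and 6.63, and the inhibitor NFKBIA at 8.16, 8.34 and 8.63. For all 3 of these genes subclone 3 was the lowest array of the 10, level with subclone 10 for NFKBIA. The other lists, with their numbers of tested genes, had medians between -0.09 and 0.17: these were neuropeptides (11), matrix proteases (20), adhesion (19), cholesterol synthesis (18), interferon-stimulated genes (21), integrated stress response (21), TGF-beta and BMP genes (19), Wnt and Notch genes (15), contractile genes (14), prostaglandin synthesis (10) and ion channels (11).

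**Figure D5:**
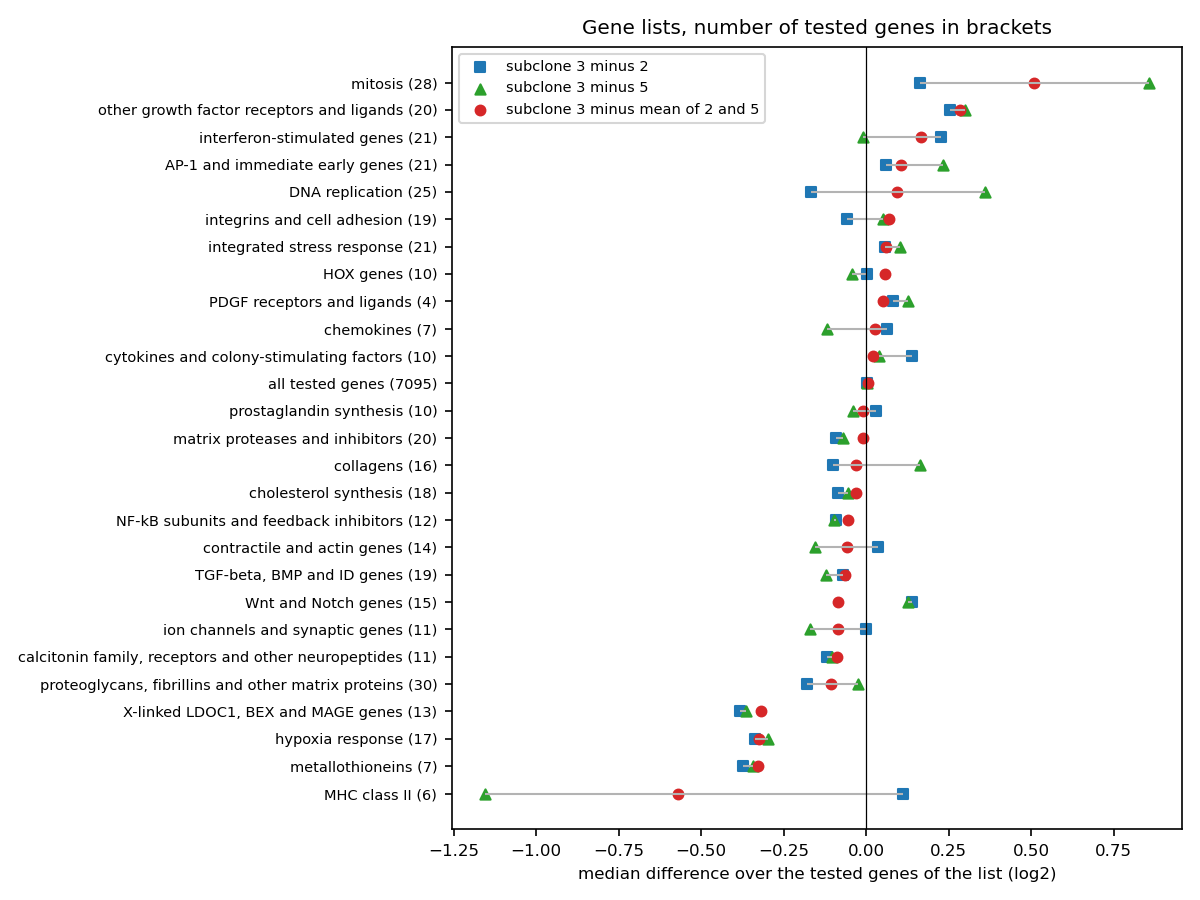
Median log2 difference (horizontal axis) over the tested genes of each of 26 gene lists and of all tested genes, for subclone 3 minus subclone 2 (blue squares), minus subclone 5 (green triangles) and minus the mean of both (red circles). Metallothionein, hypoxia response and X-linked lists lie farthest below 0 against both relatives, and several other lists, among them NF-kB and neuropeptide genes, lie below 0 against both by less. Mitosis and MHC class II genes differ mainly against subclone 5.

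Subclone 3 was the highest of all 10 for 10 of the 18 higher genes (55.6%), beside 9.82% of all tested genes and 27.6% of the 2529 tested genes in which it was above both relatives by any distance. It was the lowest of all 10 for 5 of the 31 lower genes (16.1%), beside 5.65% of all tested genes and 16.2% of the 2478 genes below both; with array medians subtracted it was 8 of 30. Those 5 were MT1M, EIF4EBP1, LAMA4, ABLIM1 and CXCR7. The rule itself favours an extreme rank, since it sets subclone 3 at least 1 log2 unit outside its closest arrays. The baselines do not use that distance, so these shares are not evidence of a trait of the genes. PNOC and SDC3 passed the filter on low values through subclone 3 alone, which had to be their highest array. ABLIM1, an actin-binding LIM protein, was at 3.92, 5.66 and 5.08 in subclones 3, 2 and 5, and subclone 10 was also at 3.92. In 17 of the 31 lower genes at least 5 of the other 7 subclones lay nearer to subclone 3 than to the nearer relative (54.8%, beside 41.6% of all genes below both). This counts arrays beyond subclone 3 as well as those at its level. In 10 of the 18 higher genes at least 5 of the 7 lay nearer to the relatives (55.6%, beside 53.4% of all genes above both). Subclone 8 sided with subclone 3 least often, in 2 of the 18 higher (11.1%) and 10 of the 31 lower genes (32.3%), beside 22.97% and 37.4% of all genes on the same side, also the lowest shares among the 7, and it was the array next in likeness to subclone 2.

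The limit of 1 log2 unit cut through a continuous range. Just inside it were ITGA2 and TROAP among the higher genes, 1.03 and 1.02 from the nearer relative, and TPD52 and SLC38A4, an amino acid transporter (3.84, 5.01 and 4.86), among the lower ones. Just outside were CYP26B1, which degrades retinoic acid (7.16, 6.07 and 6.25), and CORO2B, a coronin (8.44, 7.52 and 6.89), on the higher side. On the lower side these were the nuclear receptor NR2F2 (7.62, 9.20 and 8.60) and the junctional molecule JAM2 (8.26, 9.31 and 9.24). The lower genes not yet named were the mitochondrial co-chaperone GRPEL1 (8.05, 9.12 and 9.10), the methyltransferase gene FAM119B, now EEF1AKMT3 (6.58, 7.66 and 7.84), and the imprinted-region transcript COPG2IT1 (6.14, 7.74 and 7.20).

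Promoter sequences, running from 250 bases before to 50 after the start, were given in RefSeq for 20 of the 49 genes. The TATA box letters TATAAA, sought on both strands, were present in 6 of these 20 (30%), beside 5.86% of 5768 tested genes with a promoter and 12.0% of 27305 promoters given. By the same rule 4 of 18 genes had them for subclone 2 and 1 of 25 for subclone 5. The 6 were DKK1, LBH and TNFSF9, higher in subclone 3, and ABLIM1, FMO1 and SLC38A4, lower in it. In 4 of them the box begins 30 to 32 bases before the start on the gene's own strand, the usual place, in FMO1 it begins 50 bases before, and in SLC38A4 it lies farther away. The 5 windows with a box in the last 60 bases are shown, 60 bases before to 10 after the start, 5′ to 3′ on the gene's strand (GRCh38.p14), with TATAAA in capitals.
DKK1, chr10:52314221-52314290, plus strand: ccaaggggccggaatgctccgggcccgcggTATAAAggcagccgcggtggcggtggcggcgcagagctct
LBH, chr2:30231474-30231543, plus strand: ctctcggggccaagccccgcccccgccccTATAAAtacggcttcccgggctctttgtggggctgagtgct
TNFSF9, chr19:6530966-6531035, plus strand: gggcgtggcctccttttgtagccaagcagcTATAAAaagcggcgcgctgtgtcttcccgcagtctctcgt
ABLIM1, chr10:114684994-114685063, minus strand: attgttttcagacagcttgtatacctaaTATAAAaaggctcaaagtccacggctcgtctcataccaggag
FMO1, chr1:171248434-171248503, plus strand: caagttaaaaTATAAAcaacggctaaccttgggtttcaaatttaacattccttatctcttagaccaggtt
The match is a description of these letters and not of use of the site. The letters of an AP-1 element (TGANTCA), a cAMP response element (TGACGTCA) and an NF-kB element were in 0 of the 20 windows, beside 4.84%, 3.52% and 2.34% of tested genes, and an E-box (CACGTG) was in 1, in HOXA4, beside 10.6% of tested genes. The letters of a metal response element (TGCACNC or TGCGCNC), added to the search after the values were seen, were in 6 of the 20 (30%), beside 39.4% of tested genes. The metallothioneins past the limit, MT1M, MT3 and MT1F, are not among these 20, so the share says nothing about them. In the windows of MT1H, MT1X and MT2A, which did not pass it, the letters occur 8, 4 and 8 times.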

How the data were processed

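Total RNA of 10 U87MG subclones was hybridised to 1-colour Affymetrix arrays, 1 per subclone. In the deposited table each symbol has a single log2 value on every array. Per the submitters' processing notes RMA was used, and the log2 scale was read from that and from the range of 2.73 to 13.70. RMA corrects background, equalises probe distributions and compresses weak signals. How probe sets were joined, and with which annotation and software version, is not given in the sources used here. Arrays carry no counts, and their number limits the precision.

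Differences were computed in Python 3.11.15 with pandas 2.3.3 on the deposited values, with no test, since each subclone has 1 array. Genes were named by rule: the 20 farthest from both relatives in each direction, up to 4 per list, genes at the limit and given markers. Other genes past the limit, chromosome 8 genes and family relatives were added after their values were seen. The members, the 26 lists and the rule were chosen with earlier results of these data known. Symbols were matched to RefSeq (GRCh38.p14): 10616 were current, 1082 were older names and 182 could not be matched. The counting rule was not tested against the spread between repeat cultures, which is unknown here. Alternatives were other filters, scalings, references and distances. Of the 45 pairs of columns 0 were identical.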

Additional observations from a re-analysis of the deposited data

How the results depend on the processing

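No paired analysis was possible because each subclone has 1 array and the labels give no replicate numbers. The count of 18 higher and 31 lower genes depended on the reference: with subclone 2 alone it was 50 and 73, with subclone 5 alone 54 and 62, and with the mean of both 34 and 49. A distance of 1.5 log2 units left 6 and 7 genes and a distance of 2 left 0 and 2. With a filter on the mean value the counts were 15 and 24, with no filter 18 and 31, with array medians subtracted 18 and 30 and with quantile normalization 17 and 29. Left without chromosome 8 genes, an alternative chosen after seeing the data, they were 17 and 24. With array medians subtracted subclone 3 was the lowest of all 10 for 8 of 30 lower genes, against 5 of 31. The filter on the mean changed the median of the PDGF list to -0.22, of the X-linked list to -0.72, of the Wnt and Notch list to 0.27 and of the ion channel list to -0.28. With no filter the medians were 0.053 for growth factor receptors, -0.13 for the X-linked list and -0.28 for MHC class II. These filters change which genes are counted. Other scalings moved the medians of the 26 lists and of chromosome 8 by at most 0.05, and under them the 49 genes, PDGFRA and IL6 kept their direction. Changing the reference could not alter the direction of these genes, since subclone 3 lies outside both relatives in each of them. Below both relatives under quantile normalization were 6 of 7 metallothioneins, 14 of 17 hypoxia genes, 9 of 13 X-linked genes and 204 of 257 chromosome 8 genes, a comparison added after seeing the data.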
